A study of Mus musculus with 4 samples.

Results

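RNA of 10 genes that build and cross-link collagen fibrils was followed through injury and early ectopic bone formation in mouse tibial muscle. The genes were Col1a1, Col1a2, Col3a1, Col5a1, Col5a2, Col5a3, Col12a1, Col14a1, Lox and P4ha3, taken by symbol from 32285 features, and each symbol matched a single feature. The data were 4 spatial sections, in which RNA is captured on an array of barcoded spots and counted as unique molecular identifiers (UMIs). All sections came from Nse-Bmp4 mice on a C57BL/6 background, aged 6 to 8 weeks, in which the rat neuron-specific enolase promoter drives a murine Bmp4 cDNA. The day 0 section was uninjured muscle, and the day 1, day 3 and day 7 sections were taken that many days after injury. The injuring agent was cardiotoxin, as the methods describe. The uninjured section thus carries the transgene too, and no section of wild-type muscle was analysed here. By the labels a group mixed 3 tibial muscles, whose place on a section is not given in the sources used here. With 1 section per day there are no replicates, so no test was run, and every interval below is a 95% interval for counting error only.

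Collagens I, III and V are fibril-forming collagens, whose chains wind into triple helices that assemble into the load-bearing fibrils of connective tissue. Collagen V helps to start fibrils and to limit their width, and collagens XII and XIV sit on fibril surfaces as fibril-associated collagens. Prolyl 4-hydroxylases modify the chains inside the cell so that the helix is stable, and lysyl oxidase acts outside the cell, oxidising lysines from which covalent cross-links form. In muscle these proteins make the sheaths around fibres and bundles and the tendon insertions, and they are made mainly by fibroblasts and related stromal cells.

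The bases upstream of the genes are shown first because the levels of several of these genes went down and up together across the sections while those of others did not. RefSeq promoter windows (GRCm38.p6) are shown for 5 of the 10 genes. None was found for Col1a1, Col5a2, Col12a1 and Col14a1, while Lox was left out by choice and its upstream bases were not examined. The stretch from 250 to 51 bases before the transcript start used for these windows, 200 bases, is printed 5′ to 3′ on the strand of the gene. For Col5a1, Col5a3 and P4ha3 this start lies inside the gene bounds given in the next paragraph. Capitals mark matches on either strand to the CCAAT box, the GC box GGGCGG, the TATA box TATAAA and the SMAD-type element CAGACA, none of which overlapped another in these windows. The windows are chr6:4505368-4505567 (plus strand) for Col1a2, chr1:45311288-45311487 (plus) for Col3a1, chr2:27886175-27886374 (plus) for Col5a1, chr9:20815118-20815317 (minus) for Col5a3 and chr7:100285270-100285469 (plus) for P4ha3.
Col1a2: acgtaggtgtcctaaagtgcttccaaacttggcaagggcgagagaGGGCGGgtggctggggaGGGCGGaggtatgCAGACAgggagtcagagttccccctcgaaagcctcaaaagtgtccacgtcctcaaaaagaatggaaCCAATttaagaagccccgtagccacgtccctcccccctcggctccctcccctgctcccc
Col3a1: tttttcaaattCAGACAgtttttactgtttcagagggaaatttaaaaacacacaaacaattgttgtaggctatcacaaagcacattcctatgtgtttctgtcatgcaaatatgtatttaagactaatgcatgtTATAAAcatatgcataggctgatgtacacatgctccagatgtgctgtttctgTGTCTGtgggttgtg
Col5a1: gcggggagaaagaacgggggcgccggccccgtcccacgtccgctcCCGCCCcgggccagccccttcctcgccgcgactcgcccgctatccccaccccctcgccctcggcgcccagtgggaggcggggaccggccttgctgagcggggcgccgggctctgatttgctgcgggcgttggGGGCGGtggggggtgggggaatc
Col5a3: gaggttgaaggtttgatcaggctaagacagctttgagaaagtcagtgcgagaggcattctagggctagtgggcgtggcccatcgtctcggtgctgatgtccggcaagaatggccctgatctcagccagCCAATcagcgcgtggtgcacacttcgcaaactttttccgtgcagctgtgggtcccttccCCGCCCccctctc
P4ha3: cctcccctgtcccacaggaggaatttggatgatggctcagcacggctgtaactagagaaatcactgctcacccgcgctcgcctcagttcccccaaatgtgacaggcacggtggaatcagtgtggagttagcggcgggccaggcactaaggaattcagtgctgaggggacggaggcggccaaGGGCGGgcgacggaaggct
Of 32851 promoter windows of the same length, 28.4% held the CCAAT box, 24.6% the GC box, 9.14% the TATA box and 14.3% the SMAD-type element. The GC box stood in the windows of Col1a2, Col5a1, Col5a3 and P4ha3 and not in that of Col3a1. The Col3a1 window held the letters TATAAA in 1 place, 117 bases before the start, and the SMAD-type element in 2 places. Bases nearer to the start than 51 were not searched, so the windows cannot show whether any of the genes has a TATA box there. G and C made up 35.0% of the Col3a1 window and from 58.0% (Col5a3) to 78.0% (Col5a1) of the others. These matches describe letters and not bound sites.

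In RefSeq coordinates of the same build, the collagen I and III genes are Col1a1 (ENSMUSG00000001506) at chr11:94936224-94953042, Col1a2 (ENSMUSG00000029661) at chr6:4505618-4541543 and Col3a1 (ENSMUSG00000026043) at chr1:45311538-45349706. The collagen V genes are Col5a1 (ENSMUSG00000026837) at chr2:27886381-28039510, Col5a2 (ENSMUSG00000026042) at chr1:45374331-45503282 and Col5a3 (ENSMUSG00000004098) at chr9:20770050-20815117, of which Col5a2 lies beside Col3a1. The other genes are Col12a1 (ENSMUSG00000032332) at chr9:79598987-79721141, Col14a1 (ENSMUSG00000022371) at chr15:55307644-55520803, Lox (ENSMUSG00000024529) at chr18:52516060-52529867 and P4ha3 (ENSMUSG00000051048) at chr7:100285489-100319701.

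The sections held 2107 to 3032 spots and 16777832 (day 1) to 56113066 (day 3) UMIs, with a median of 6322 UMIs per spot at day 1 and from 12119.5 to 21029 in the other sections. A spot covers several cells, so fewer cells of a type and less RNA per cell cannot be told apart in any value below. Levels are given as CPM, the count of a gene scaled by the total UMIs of the section, and 1341 spot barcodes occurred in all 4 sections because they name array positions and not cells. The adult myofibre list (12 genes, among them Acta1 and Ckm) held 23.8%, 12.3%, 7.67% and 14.1% of UMIs on days 0, 1, 3 and 7, so each section held muscle RNA. Counts of different genes are not compared as levels, since no length or capture correction was made.

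The 10 genes together held 0.716% of all UMIs in uninjured muscle and 0.0889%, 0.581% and 2.45% on days 1, 3 and 7. Col1a1, Col1a2 and Col3a1, which encode the chains of collagens I and III, were all low at day 1 and nearer to their uninjured levels at day 3. By day 7 the collagen I genes were far above those levels, and Col3a1 was not. Col1a1 had 2253 CPM (2238 to 2267), 214 (207 to 221), 1309 (1299.6 to 1319) and 10599.9 (10569 to 10631) on days 0, 1, 3 and 7. Col1a2, the partner chain of Col1a1 in collagen I, had 1961, 283, 1384 and 7966 CPM on the same days. Col3a1, the single chain of collagen III, which is plentiful in the thin sheaths around muscle fibres, had 2411, 222, 2015 and 3417 CPM. All 3 genes thus had their lowest level at day 1, with a ratio to day 0 of 0.0951 (0.0920 to 0.0983) for Col1a1, 0.144 (0.140 to 0.149) for Col1a2 and 0.0919 (0.0889 to 0.0950) for Col3a1. At day 7 Col1a1 stood at 4.71 times (4.67 to 4.74) and Col1a2 at 4.06 times (4.03 to 4.09) the uninjured level. Col3a1 stood at 1.42 times (1.41 to 1.43) on the CPM scale, a log2 ratio of 0.50 that became -0.10 with TMM factors and -0.13 with size factors, which centre the ratios on the bulk of genes, so its direction at day 7 depended on the scaling.

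Among the collagen V genes, Col5a1 and Col5a2 shared with the collagen I genes a low level at day 1 and a high one at day 7, while Col5a3 was below its day 0 level throughout. Col5a1 had 186, 28.0, 274 and 751 CPM on days 0, 1, 3 and 7. Col5a2, whose chain joins that of Col5a1 in the common form of collagen V, had 166, 39.3, 355 and 673 CPM. At day 3 Col5a1 stood at 1.47 times day 0 (a log2 ratio of 0.56, or 0.01 with TMM factors) and Col5a2 at 2.14 times, where Col1a1 stood at 0.581 and Col1a2 at 0.706 times. The day 7 levels of Col5a1 and Col5a2 were 4.04 times (3.94 to 4.14) and 4.06 times (3.96 to 4.17) those of day 0. Col5a3, which encodes a less widespread chain of collagen V, had 121, 51.9, 77.3 and 89.4 CPM and was below its uninjured level in all 3 injured sections. Its smallest ratio to day 0 was 0.428 (0.398 to 0.460) at day 1, and at day 7 it was 0.738 (0.708 to 0.770).

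The fibril-associated collagens Col12a1 and Col14a1 did not follow the same course. Col12a1 had only 294 UMIs at day 0 and 151 at day 1, or intervals of 5.96 to 7.51 CPM and 7.62 to 10.6 CPM. It then had 69.9 CPM at day 3 and 665 CPM at day 7, which was 99.3 times (88.5 to 112) the uninjured level. Col14a1 had 43.9, 5.30 (89 UMIs), 60.9 and 162 CPM on days 0, 1, 3 and 7, or 3.69 times (3.51 to 3.89) the uninjured level at day 7. Thus Col14a1 was 8.28-fold lower at day 1 than at day 0, as the collagen I and III genes were low there, while Col12a1 was at 1.34 times (1.10 to 1.64) its day 0 level. At day 3 the log2 ratio of Col14a1 to day 0 was 0.47 on the CPM scale, -0.08 with TMM factors and -0.09 with size factors, so no direction is given for it.

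Lox, the lysyl oxidase of the 10 genes, had its highest level at day 3. Its CPM was 16.0 (14.9 to 17.3), 35.5 (32.7 to 38.4), 247 (243 to 252) and 115 (111 to 118) on days 0, 1, 3 and 7. On the CPM scale no other of the 10 genes was highest at day 3, since Col5a3 was highest at day 0 and the remaining 8 at day 7. Of these 8, Col3a1 was below its day 0 level at day 7 with TMM factors or size factors. Relative to day 0, Lox stood at 2.21 times (1.98 to 2.47), 15.4 times (14.3 to 16.7) and 7.14 times (6.60 to 7.74) on days 1, 3 and 7. Between days 3 and 7 it was 2.16-fold lower, while Col1a1 was 8.10 times higher.

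P4ha3 encodes the least widely expressed catalytic subunit of prolyl 4-hydroxylase and had very few UMIs in uninjured muscle. Its UMIs numbered 10, 9, 778 and 941 on days 0, 1, 3 and 7, or 0.228 (0.109 to 0.419), 0.536 (0.245 to 1.02), 13.9 and 22.5 CPM. The ratio of day 1 to day 0, 2.35 (0.846 to 6.44), includes 1, so no difference was detectable at this depth. At day 3 P4ha3 stood at 60.8 times (32.9 to 127) and at day 7 at 98.7 times (53.4 to 206) its day 0 level, with wide intervals because of the 10 UMIs at day 0.

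**Figure D1:**
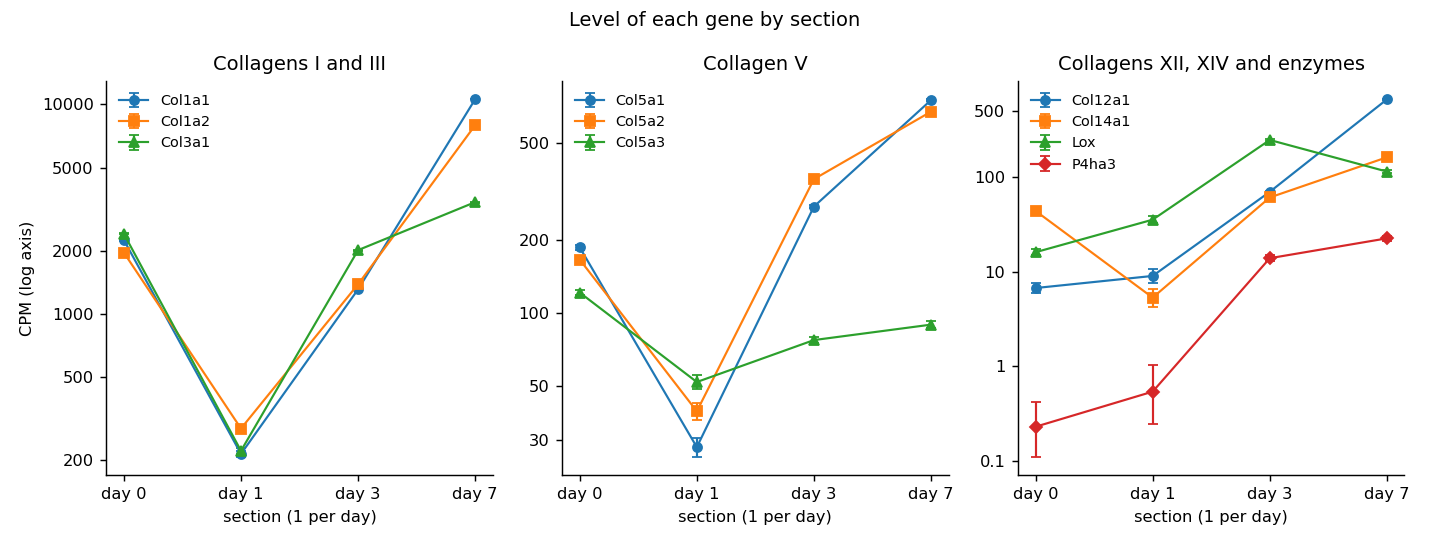
CPM of each gene (log axis, 1 scale per panel) in the sections of days 0, 1, 3 and 7, with 1 section per day; points are section values, bars are 95% Poisson intervals for counting error and lines only join the points. The collagen I and III genes dip at day 1 (Col1a1 from 2253 to 214 CPM), Lox is highest at day 3 (247 CPM), and Col12a1 goes from 6.70 CPM at day 0 to 665 CPM at day 7.

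Counted against day 0 with a 2-fold threshold, 7 of the 10 genes were lower and 2 were higher at day 1, where 9.93% and 16.6% of the 17250 genes with at least 10 UMIs were lower and higher. The 2 that were higher were Lox, which was within 2-fold with TMM factors, and P4ha3, whose 9 against 10 UMIs give an interval that includes no difference. The median log2 ratio of the 10 genes was -2.40 at day 1 against 0.12 over all genes tested. At day 3, 4 genes were past 2-fold higher (Col5a2, Col12a1, Lox and P4ha3) beside 31.9% of all genes, and 0 were lower beside 8.53%. Of these 4, Col5a2 had a log2 ratio of 1.10 and was within 2-fold with TMM factors or size factors, which shifted it by -0.55 and -0.56. With TMM factors Col1a1, Col1a2 and Col5a3 were past 2-fold lower at day 3, and the median log2 ratio of 0.51, against 0.55 over all genes, became -0.03. At day 7, 8 genes were past 2-fold higher beside 32.0% of all genes and 0 were lower beside 2.13%, with a median of 2.02 against 0.64. Col3a1 and Col5a3 were the 2 genes within 2-fold of day 0 at day 7, and with TMM factors Col5a3 was past 2-fold lower. These 3 comparisons share the day 0 section.

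TMM factors moved all log2 ratios to day 0 by -0.21, -0.55 and -0.61 on days 1, 3 and 7. The share of adult myofibre RNA moved across the same sections, and its part in the ratios was not tested.

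**Figure D2:**
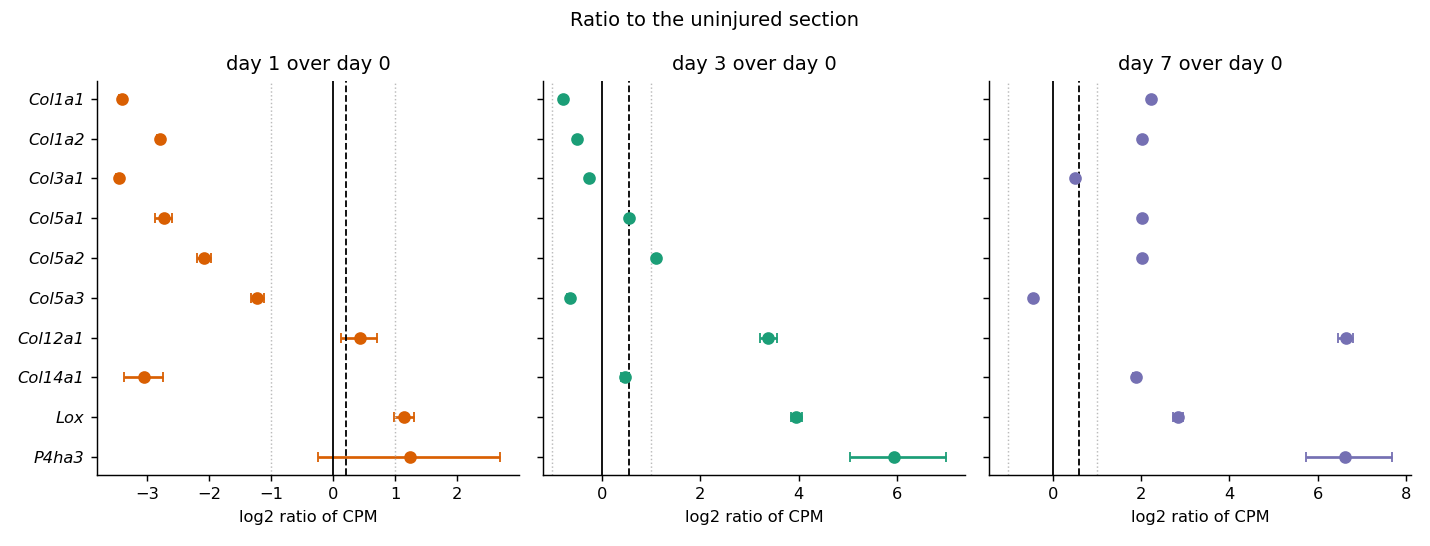
log2 ratio of CPM to the day 0 section for each gene at days 1, 3 and 7 (1 section per day, bars are 95% intervals for counting error, horizontal axes differ in range). The solid line is no change in CPM, the dashed line no change with TMM factors, and the dotted lines 2-fold; at day 1 the collagen I, III and V genes and Col14a1 lie at the left, while Col14a1 at day 3 and Col3a1 at day 7 lie between the solid and dashed lines, so their direction turns with the scaling.

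Between neighbouring sections, 9 of the 10 genes were past 2-fold higher at day 3 than at day 1 (16.6% of all genes) and 0 were lower (5.55%). Col5a3, at 1.49 times (1.38 to 1.60), was the exception. Col14a1 showed the largest increase among genes with a day 1 count above 50 UMIs, at 11.5 times (9.31 to 14.3), followed by Col5a1 at 9.77 times and Col3a1 at 9.09 times. From day 3 to day 7, 5 genes were past 2-fold higher (16.5%) and only Lox was past 2-fold lower (11.4%). The 5 were Col12a1 (9.52 times), Col1a1 (8.10), Col1a2 (5.76), Col5a1 (2.74) and Col14a1 (2.66), while Col3a1 was at 1.70 times its day 3 level.

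Ratios of UMIs between genes within a section do not depend on the scaling, so their change between sections was compared. Col1a1 over Col3a1 was 0.934 (0.926 to 0.942), 0.967 (0.923 to 1.01), 0.650 (0.644 to 0.656) and 3.10 (3.08 to 3.12) on days 0, 1, 3 and 7. The balance between Col1a1 and Col3a1 RNA thus differed little between days 0 and 1, lay toward Col3a1 at day 3 and toward Col1a1 at day 7. The other collagen I gene did not keep its balance with Col3a1 at day 1, where Col1a2 was at 0.144 times and Col3a1 at 0.0919 times day 0. Col1a1 over Col1a2, the chains of 1 protein, moved less, with 1.15, 0.757, 0.946 and 1.33 on the same days. Col5a3 over Col5a1 was 0.652, 1.85, 0.282 and 0.119 on those days, so the collagen V chains did not stay in proportion. Col12a1 over Col14a1 was 0.153 (0.134 to 0.173), 1.70 (1.30 to 2.23), 1.15 and 4.10.

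Lox, whose enzyme acts on collagen I among others, was far from proportional to Col1a1. Lox over Col1a1 was 0.00712 (0.00661 to 0.00767), 0.166 (0.152 to 0.181), 0.189 (0.186 to 0.193) and 0.0108 (0.0105 to 0.0111) on days 0, 1, 3 and 7. The same order held inside the sections: over regions of spots with similar RNA, defined below, the ratio lay between 0.00509 and 0.00760 at day 0 (5 regions), 0.0385 and 0.282 at day 1 (7 regions), 0.139 and 0.311 at day 3 (9 regions), and 0.00750 and 0.0288 at day 7 (7 regions). In this grouping the regions of days 1 and 3 did not overlap those of days 0 and 7. At a finer grouping (clustering resolution 1 in place of 0.5) days 1 and 7 overlapped, with 0.0611 (0.0563 to 0.0661) in a day 7 region of 261 spots and 0.0418 (0.0226 to 0.0711) in a day 1 region of 217 spots. Lox also changed against its relative Loxl1, with ratios of 0.277, 0.561, 1.24 and 0.633. P4ha3 over P4ha1, the broadly expressed subunit, was 0.00664 (0.00318 to 0.0123), 0.0240 (0.0109 to 0.0461), 0.299 and 0.346.

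**Figure D3:**
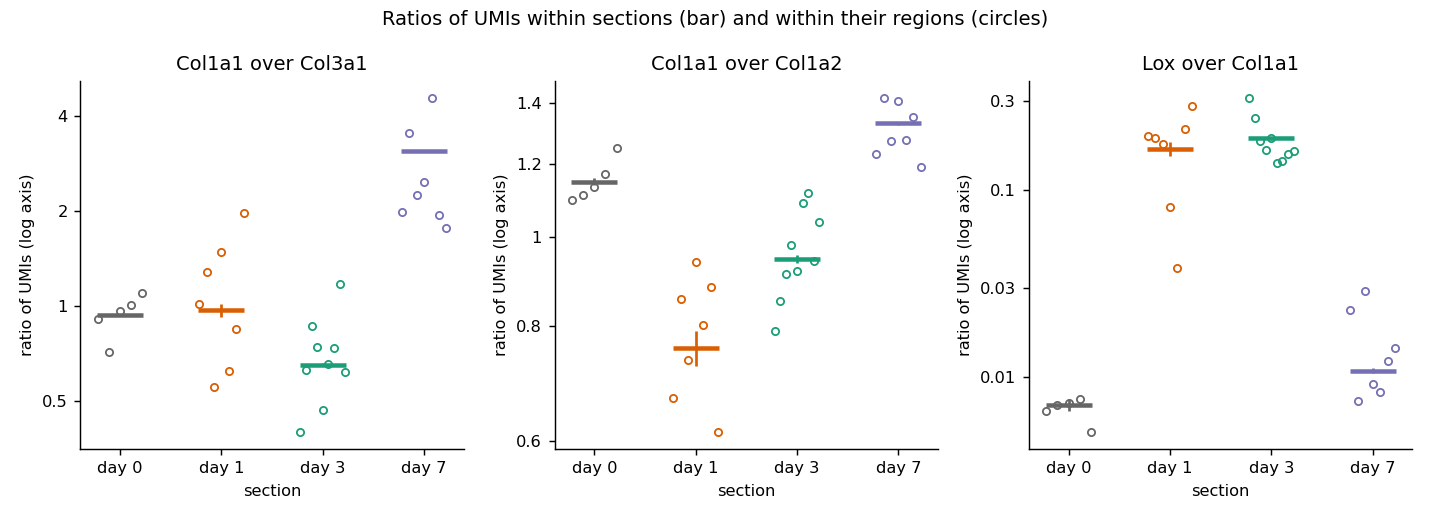
Ratios of UMIs of Col1a1 over Col3a1, Col1a1 over Col1a2 and Lox over Col1a1 (log axes) by section; horizontal bars are whole sections with 95% counting intervals and circles are regions of at least 20 spots. Lox over Col1a1 is between 0.0385 and 0.311 in all regions of days 1 and 3 and at most 0.0288 in those of days 0 and 7, a separation of days 1 and 7 that the finer grouping does not keep (0.0611 in a day 7 region, 0.0418 in a day 1 region), and Col1a1 over Col3a1 is highest at day 7 (3.10 for the section).

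The genes also differed in how widely they were spread over spots. After each spot was thinned to 2000 UMIs, a UMI of at least 1 of the 10 genes was held by 99.6%, 59.2% (57.0 to 61.2), 97.1% and 99.9% of spots on days 0, 1, 3 and 7. Thinning left out 513 spots at day 1 and 9 to 84 in the other sections, and without it the shares were 100%, 77.8%, 99.97% and 100%. Col1a1 alone was found in 90.3% (88.9 to 91.5), 26.7% (24.8 to 28.6), 71.1% (69.5 to 72.7) and 97.3% (96.6 to 97.8) of thinned spots, with exact binomial intervals. At a fixed depth this share falls with the level of a gene, so the low shares at day 1 do not measure spread apart from level. Col12a1 went from 1.33% (0.892 to 1.93) of spots at day 0 to 1.84% (1.33 to 2.52), 9.82% (8.76 to 10.9) and 42.3% (40.5 to 44.1). Lox was found in 3.18%, 6.08%, 30.1% and 17.6% of spots, and thus again was most widespread at day 3. P4ha3 was in 0.0359% of spots at day 0 and 3.58% (2.95 to 4.33) at day 7. No spots known to lack stromal cells were available as a background, and among the spots richest in adult myofibre RNA, defined below, 85.7%, 25.7%, 48.2% and 94.9% held Col1a1.

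The UMIs were not evenly shared among spots. The 10% of spots with the most Col1a1 UMIs held 39.9%, 54.4%, 43.5% and 50.4% of that gene's UMIs on days 0, 1, 3 and 7. At day 7 the median spot of at least 2000 UMIs had 4765 CPM of Col1a1, the spot at the 5th percentile 824 CPM and the spot at the 95th percentile 42212 CPM. Col12a1 was more concentrated at day 7, with 62.1% of its UMIs in the top 10% and none in 669 of 2948 spots.

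Across spots, the other genes varied with Col1a1 to different extents. Spearman's rho with Col1a1 was 0.599, 0.412, 0.538 and 0.891 for Col1a2 on days 0, 1, 3 and 7. For Col3a1 it was 0.491, 0.311, 0.519 and 0.744, and for Col12a1 0.0698, 0.0933, 0.223 and 0.631. Col12a1 had a UMI in only 1.33% and 1.84% of thinned spots at days 0 and 1, against 42.3% at day 7. Ties this numerous keep rho low whatever the relation, so the rise for Col12a1 cannot show a change in its relation with Col1a1. Col5a3 stayed between 0.111 and 0.135 in all sections. Lox had 0.121, 0.161, 0.297 and 0.294. These values describe spots that share a library and a fixed depth, they are damped for genes with few UMIs, and they carry no p-value. Given the adult myofibre share of each spot, rho at day 7 was 0.785 for Col1a2, 0.522 for Col3a1, 0.441 for Col12a1 and 0.121 for Lox, and at day 3 it was 0.298 for Col1a2 and 0.250 for Col3a1.

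The 5 genes most like the summed 10 genes across thinned spots were mostly stromal and matrix genes at days 0, 1 and 7. At day 0, over 2090 spots and 3240 genes, they were Gsn (rho 0.489), Sparc (0.463), Dcn (0.337), Pcolce and Postn (0.272). At day 1 they were Gsn (0.464), Dcn (0.350), Sparc (0.326), Col6a3 (0.293) and the adipocyte gene Cfd (0.291). At day 3, over 3020 spots, they were Apoe (0.660), Lyz2 (0.641), Eef1a1 (0.634), Tmsb4x (0.618) and Tmsb10 (0.605), of which Lyz2 is a macrophage and neutrophil gene and Eef1a1 a translation factor of every cell, and the matrix genes Postn (0.571) and Fn1 (0.547) came lower at ranks 8 and 13. At day 7, over 2948 spots, they were Sparc (0.809), Postn (0.699), Fn1 (0.692), Bgn (0.681) and Actb (0.614), the last a cytoskeletal gene of every cell.

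To place the RNA against muscle, spots of each section were ranked by their share of adult myofibre UMIs, and the 702 to 1010 spots at the bottom (myofibre-poor) were set against as many at the top (myofibre-rich), leaving out an equal number between. All 10 genes had more CPM in the myofibre-poor spots in every section, with P4ha3 resting on at most 10 UMIs at days 0 and 1. The ratio for the sum of the 10 genes was 1.96 (1.95 to 1.98), 1.94 (1.86 to 2.02), 5.15 (5.08 to 5.23) and 6.91 (6.86 to 6.96) on days 0, 1, 3 and 7. The adult myofibre list itself had ratios of 0.687, 0.328, 0.126 and 0.405, so the spots compared also differed more in muscle RNA at day 3 than on the other days. Col12a1 had the highest ratio at day 7, with 1338 CPM in the myofibre-poor spots and 124 CPM in the myofibre-rich spots, a ratio of 10.8 (10.3 to 11.4). Col5a3 had the lowest ratio at days 0, 3 and 7, at 1.43 (1.34 to 1.53), 2.43 (2.20 to 2.69) and 2.41 (2.20 to 2.64). Muscle RNA itself takes up part of the total that CPM divides by, and with a total that leaves out mitochondrial, haemoglobin and adult myofibre genes the summed ratios were 1.82, 1.61, 3.72 and 5.21.

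RNA of several other lists was also higher in the myofibre-poor spots. The monocyte/macrophage list (8 genes) had ratios of 1.89, 2.51, 5.39 and 2.89 on the 4 days, the MSC (mesenchymal stem cell) list (6 genes, Pdgfra and Prrx1 among them) 1.86, 2.14, 1.99 and 1.98, and the chondrogenic list (7 genes) 2.48, 1.56, 2.22 and 8.66. The neutrophil list (5 genes) had 4.59, 3.56, 5.45 and 3.02, and the osteogenic list (7 genes) 2.28, 1.29, 1.52 and 7.99. The regenerating muscle list (7 genes, Myh3 and Myog among them) had 1.18, 3.40, 9.13 and 3.22. Not all lists were higher at day 3, where the endothelial list had 1.07 and the Schwann cell list 0.979. At day 3 the ratio of the 10 genes was thus near those of the macrophage and neutrophil lists and below that of the regenerating muscle list. At day 7 it was nearer to those of the osteogenic and chondrogenic lists. The part of these cells in the ratios was not tested.

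The low level at day 1 was present at both ends of this ranking, while the later levels depended on it. In the myofibre-poor spots, Col1a1 at day 1 was at 0.108 times its day 0 level, and in the myofibre-rich spots at 0.103 times. At day 7 it was at 6.36 times in the myofibre-poor spots and 1.68 times in the myofibre-rich spots. Col3a1 at day 7 was at 1.81 times its day 0 level in the myofibre-poor spots and at 0.767 times in the myofibre-rich spots. Lox at day 3 was at 16.5 and 7.41 times its day 0 level in these sets of spots. Ranking was within a section, and the bound differed between sections, with at most 22.2% adult myofibre UMIs in the myofibre-poor spots at day 0 and at most 5.69% at day 3.

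**Figure D4:**
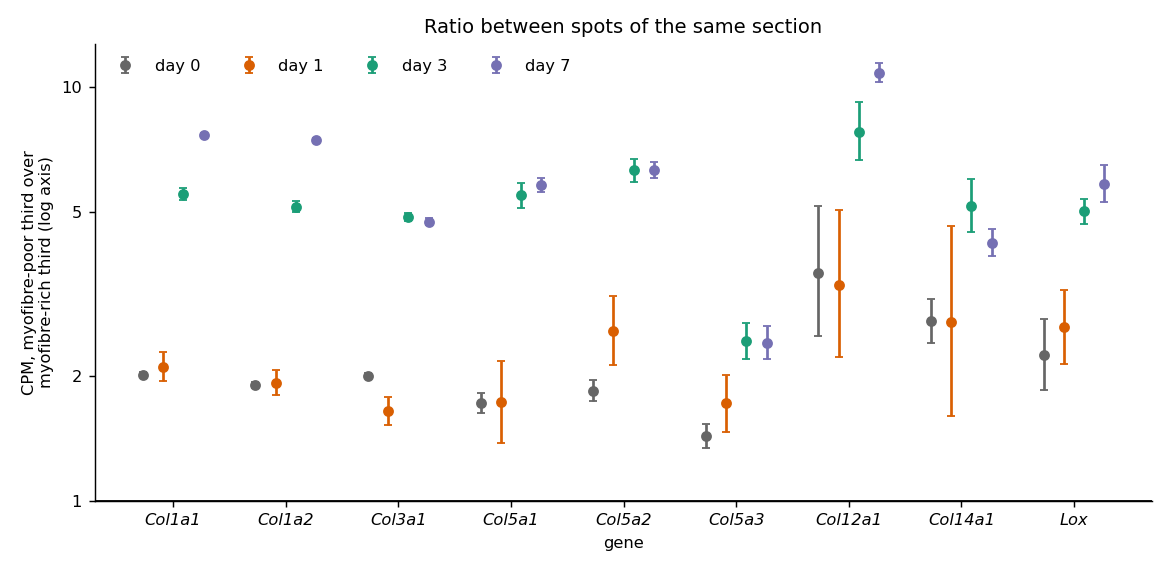
Ratio of CPM between the spots poorest and the spots richest in adult myofibre RNA, 702 to 1010 spots each (log axis), for each gene and section; bars are 95% intervals for counting error and P4ha3, with few UMIs at days 0 and 1, is left out. All points lie above 1, the points of days 3 and 7 lie above those of days 0 and 1 for each gene shown, and Col12a1 at day 7 is highest at 10.8.

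Spots of each section were then grouped into regions by their RNA, with the 10 genes and all gene lists left out of the grouping. In uninjured muscle, a region of 368 spots led by Retnla, Eln and Pi16 and richest of the regions of at least 20 spots in the monocyte/macrophage (765 CPM), MSC (703 CPM) and smooth muscle (725 CPM) lists held 12740 CPM of the 10 genes (12667 to 12814), 2.22 times the rest of the section. A region of 147 spots richest in the adipocyte list, led by Nnat and Pck1, held 10209 CPM, and the region richest in adult myofibre RNA (745 spots) held 3623 CPM. A further region of only 17 spots, below the minimum of 20, had 1691 CPM of the tendon list against at most 101 in the others. It had the highest level of the 10 genes at day 0 in this grouping, 15513 CPM. It held 84 of the 294 Col12a1 UMIs (28.6%) and 4 of the 10 P4ha3 UMIs of the day 0 section. In these spots Col1a1 over Col3a1 was 3.09, against 0.714 to 1.09 in the other day 0 regions. Another day 0 region was highest at the finer grouping, with 66 spots led by Sfrp4, Pi16 and Sfrp2 and 21615 CPM of the 10 genes. A region of 17 spots rich in the tendon list held 15575 CPM there.

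At day 1 the 2 highest levels were in small regions. The tendon list held 86.0, 372, 622 and 370 CPM over the whole sections on days 0, 1, 3 and 7. A region of 36 spots richest in the tendon list, led by Tnmd and Angptl7, held 4563 CPM of the 10 genes (4356 to 4778), 5.71 times the rest. It held 137 of the 595 Lox UMIs of the section (23.0%), a level of 344 CPM against 35.5 CPM in the whole section. At the finer grouping the region richest in the tendon list held 2220 CPM of the 10 genes. The region richest in the adipocyte list (219 spots, led by Pck1 and P2rx1) held 2644 CPM, while the region richest in monocyte/macrophage RNA (657 spots, with a median of 1444 UMIs) held 567 CPM, 0.611 times the rest. A region of 209 spots had only 197 CPM of the monocyte/macrophage list, as low as any region of the uninjured section in this grouping. At the finer grouping a day 0 region had 147 CPM of that list. The region of 209 spots had 16.6 CPM of the neutrophil list, against at most 3.34 CPM in the day 0 regions of the same grouping. It held 1360 CPM of the 10 genes and a Lox over Col1a1 ratio of 0.0385, the lowest at day 1.

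At day 3, in this grouping, the 2 regions with the most macrophage RNA also held the most RNA of the 10 genes. Over the whole sections the monocyte/macrophage list held 385, 1447, 7450 and 1936 CPM on days 0, 1, 3 and 7. The part of macrophages in the collagen levels was not tested. The region richest in monocyte/macrophage RNA (514 spots, led by Spp1 and Rsad2, 14146 CPM of the list) held 8154 CPM of the 10 genes, 1.57 times the rest, and 419 CPM of Lox. A region of 357 spots with 11621 CPM of that list, led by Mest, Mymx and Mymk, held 9981 CPM, the most at day 3. It was also the day 3 region richest in the regenerating muscle list, with 1648 CPM. The region richest in adult myofibre RNA (457 spots) held 1990 CPM. The day 3 region richest in the monocyte/macrophage list at the finer grouping, with 16553 CPM of it, again held the most, 10266.5 CPM. The next richest, with 13140 CPM of the list, held 7119 CPM. That was less than in regions with 11979, 7307 and 7074 CPM of the list, which held 9871, 8898 and 7151 CPM. At day 7 the region richest in monocyte/macrophage RNA (268 spots, led by Myh8, Gpnmb and Myh3, genes of newly formed muscle and of macrophages) held 16505 CPM, 0.626 times the rest, but 0.987 times the rest (16719 CPM) once the region richest in cartilage genes, described next, was also left out, a comparison added after seeing the data. At the finer grouping the 2 regions of at least 20 spots richest in that list, with 2960 and 2951 CPM of it, held 10019 and 26760.2 CPM of the 10 genes, so no direction is given for day 7.

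The highest level of any region was in the day 7 region richest in the chondrogenic list, 277 spots or 9.14% of the section, led by the cartilage genes Col10a1, Col9a1, Col9a3 and Col2a1. It held 97500.3 CPM of the 10 genes (97196 to 97806), 5.85 times the rest. Col1a1 had 43726 CPM there, Col3a1 9559.6, Col12a1 3723, Lox 366 and P4ha3 97.3. The region held 53.9% of all Col12a1 UMIs of the section, 41.7% of those of P4ha3 and 39.7% of those of Col1a1, but 27.0% of those of Col3a1, 19.1% of those of Col14a1 and 13.3% of those of Col5a3. Col1a1 over Col3a1 was 4.57 there and between 1.77 and 3.54 in the other 6 day 7 regions, all of them above each of the day 0 regions of at least 20 spots.

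The day 7 levels did not rest on this region alone. With its spots left out, a choice made after the data were seen, 8 genes were still past 2-fold higher than at day 0, with Col1a1 at 3.14 times, Col12a1 at 50.6 times and Lox at 5.47 times, and Col3a1 was at 1.15 times.

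**Figure D5:**
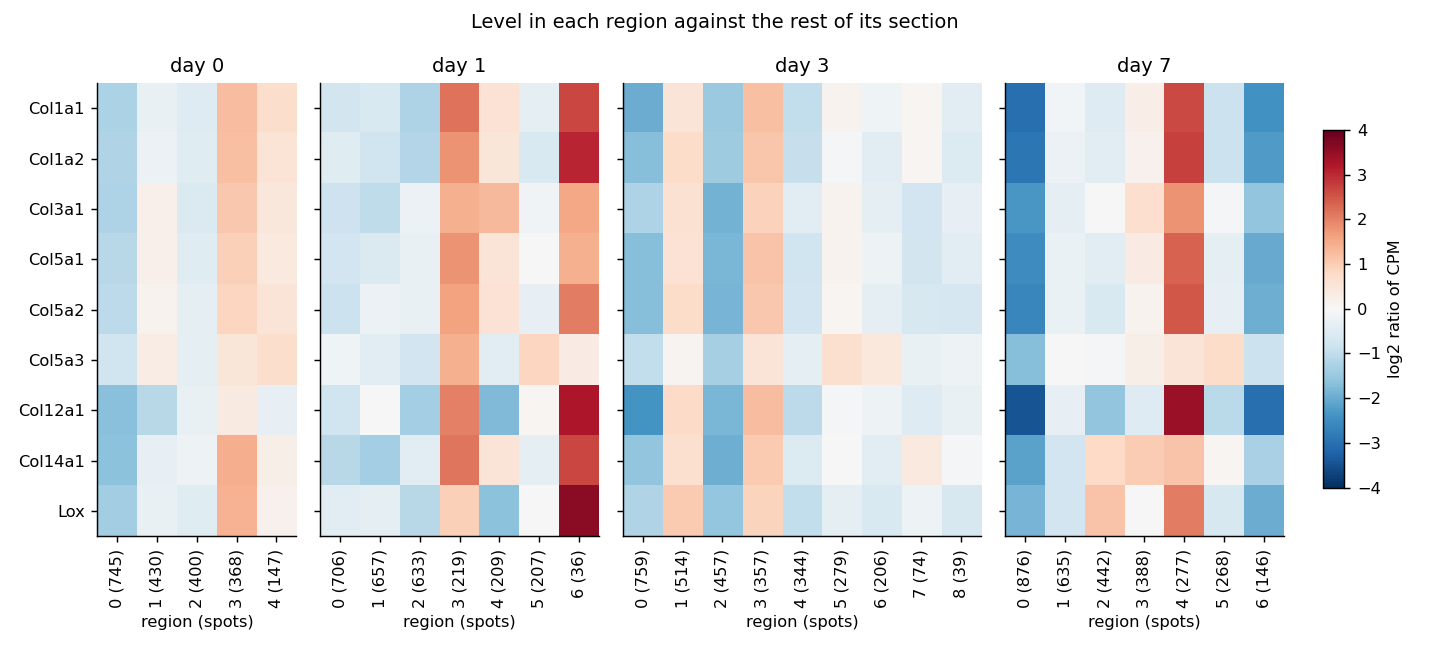
log2 ratio of CPM in each region to the rest of its section, for regions of at least 20 spots (columns, with the number of spots in brackets) in each section and 9 genes (rows, P4ha3 left out for its few UMIs). Red is higher and blue lower than the rest; day 1 region 6 (36 spots, richest in tendon genes) and day 7 region 4 (277 spots, richest in cartilage genes) are the darkest red, the latter with 5.85 times the rest for the sum of the 10 genes, and the Col5a3 row is paler than the others at day 7.

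The MSC list did not follow the collagens at day 1. UMIs of the 10 genes per UMI of the MSC list were 14.4, 1.31, 4.51 and 25.04 on days 0, 1, 3 and 7. The MSC list itself held 498, 677, 1286 and 977 CPM, and its day 1 sum was higher mainly through Ly6a and Ly6e, which made up 4877 and 4640 of its 11358 UMIs. Of its 6 genes, Ly6a (1.79 times day 0), Ly6e (1.54) and Adam12 (3.69) were higher at day 1 and Pdgfra (0.737), Prrx1 (0.527) and Cxcl12 (0.679) lower, with a median log2 ratio of 0.09 against 0.12 over all genes, before the TMM shift of -0.21. Col3a1 per MSC list UMI was 4.84 at day 0 and 3.50 at day 7, whereas Col1a1 went from 4.52 to 10.9 and Col12a1 from 0.0134 to 0.681. Lox per MSC list UMI was 0.0322, 0.0524, 0.192 and 0.117.

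Other genes of collagen biosynthesis were examined in 6 lists. Beside their counts at days 1 and 3 stand the shares of all genes, 16.6% higher and 9.93% lower at day 1 and 31.9% higher and 8.53% lower at day 3. Of the 19 genes that modify and fold the chains, 1 was past 2-fold higher and 4 lower at day 1, 10 higher and 1 lower at day 3, and 14 higher and 0 lower at day 7. Their median log2 ratio to day 0 was -0.00282, 1.03 and 1.35, where all genes tested had 0.12, 0.55 and 0.64. At day 7 Plod2, the lysyl hydroxylase that acts on the ends of collagen chains, had 83.9 CPM against 5.86 at day 0, or 14.3 times (12.6 to 16.3), and its partner Fkbp10 stood at 8.84 times. The other prolyl 4-hydroxylase subunits changed less than P4ha3, with 34.3, 22.4, 46.3 and 65.0 CPM for P4ha1 on days 0, 1, 3 and 7 and 38.6, 15.1, 37.4 and 60.3 CPM for P4ha2.

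Of the 7 tested genes of propeptide processing, which trim collagen ends so that fibrils can form, 0 were past 2-fold higher and 3 lower at day 1, among them Pcolce at 0.234 times and Bmp1 at 0.451 times, 1 was higher at day 3 and 3 at day 7, with Bmp1 at 4.50 times (4.31 to 4.71). Their median log2 ratio was -0.68, 0.30 and 0.80 on days 1, 3 and 7. Of the 5 other cross-linking enzymes, 1 was past 2-fold higher and 1 lower at day 1, 3 higher at day 3 and 4 higher at day 7, with medians of 0.13, 1.78 and 1.64. At day 3 Loxl3 was at 8.60 times (7.76 to 9.54) and Loxl1 at 3.43 times day 0, and at day 7 Loxl3 was at 5.25 times. Loxl2 went the other way at day 1, with 8.52 CPM against 34.8, while Lox was at 2.21 times its day 0 level. The lysyl oxidase genes thus did not share a direction at day 1.

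Of 10 genes for proteins that bind fibrils, 6 were past 2-fold lower and 1 higher at day 1, 5 higher and 0 lower at day 3 and 7 higher and 0 lower at day 7, with medians of -1.46, 1.09 and 2.26. Lum was at 0.171 times and Tnxb at 0.250 times day 0 at day 1, but Fmod, a proteoglycan that binds collagen I, was at 5.42 times (4.95 to 5.94). Fmod was also among the leading genes of the day 1 region of 36 spots richest in the tendon list. That list held 86.0 CPM at day 0 and 372 CPM at day 1, and its part in the Fmod ratio was not tested. Postn, a matrix protein of repair tissue, was at 0.253 times day 0 at day 1, 7.89 times at day 3 and 14.6 times at day 7. Of 14 genes of collagen receptors, uptake and breakdown, 7 were past 2-fold lower and 2 higher at day 1, 4 higher and 2 lower at day 3 and 8 higher and 0 lower at day 7. The 7 at day 1 included Fap, a stromal surface protease, at 0.136 times, and the 8 at day 7 included Mmp13 (205 UMIs against 5) and Itga11, an integrin chain that binds collagen I, at 4.61 times. The medians of these 14 genes were -0.98, 0.33 and 1.51. Of 12 other fibril-forming and fibril-associated collagens, 2 were past 2-fold higher and 3 lower at day 1, 3 higher and 4 lower at day 3 and 10 higher and 0 lower at day 7, with medians of -0.74, -0.09 and 5.00, led at day 7 by the cartilage collagens Col2a1, Col9a1, Col9a3 and Col9a2. Read against the 32.0% of all genes past 2-fold higher at day 7, these lists held 14 of 19, 3 of 7, 4 of 5, 7 of 10, 8 of 14 and 10 of 12.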

How the data were processed

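RNA was measured in 4 fresh frozen sections, 1 per day. The authors deposited unnormalised counts of UMIs for every feature and spot, made with Space Ranger (1.2.0 in the matrix headers, while the methods name another version) on the mm10 build named in the submitters' processing notes. All deposited spots were used. Spot positions, images and single-cell data were not used here. The 10 genes and all lists were chosen with earlier results of these data known. UMIs were summed per section, scaled to CPM and compared as ratios, with exact Poisson and conditional 95% intervals, a floor of 3 UMIs and no test. Genes were named by rule: all 10 genes and, from each list, up to 4 past 2-fold with at least 50 UMIs over the 4 sections. P4ha1, and the values of a named gene on its other days, were added with the values known. Spots were thinned to 2000 UMIs in 20 draws (5 for the genes most alike). Regions were Leiden clusters (Scanpy 1.11.5, 2000 variable genes, 30 components, 15 neighbours, resolution 0.5). Alternatives of scaling were TMM factors (edgeR 4.0.16), size factors (DESeq2 1.42.0) and a total without mitochondrial, haemoglobin and adult myofibre genes. Others were spots with at least 1000 UMIs, 4-fold, and a split of spots at the median myofibre share. Thinning to 1000 or 4000 UMIs, partial rho and a resolution of 1 were also used. Calculations were tested on simulated data. Doublet calling does not apply to spots. Depth ranged from 16777832 to 56113066 UMIs per section, which sets the intervals.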

Additional observations from a re-analysis of the deposited data

How the results depend on the processing

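No paired analysis was possible because each day had 1 section, and for the same reason no section could be left out. Restricting to spots with at least 1000 UMIs left all 19 summaries and all 50 gene ratios within their counting intervals. The filter on low counts left out none of the 10 genes, so dropping it could not change their counts and was not a check. Of 250 recomputed log2 ratios of single genes, 4 turned sign: Col14a1 at day 3 against day 0 gave -0.076 with TMM factors and -0.085 with size factors, and Col3a1 at day 7 against day 0 gave -0.10 and -0.13. The median log2 ratio of the 10 genes at day 3 against day 0 was 0.51 and turned to -0.033 with TMM factors and -0.042 with size factors, and it was 0.15 with the reduced total (without mitochondrial, haemoglobin and adult myofibre genes) and 0.62 in the myofibre-poor spots. In the order TMM factors, size factors, reduced total and myofibre-poor spots, the medians were -2.61, -2.60, -2.56 and -2.11 for day 1 over day 0, 1.42, 1.39, 1.78 and 2.53 for day 7 over day 0, 2.73, 2.70, 2.86 and 2.83 for day 3 over day 1, and 1.11, 1.09, 1.29 and 1.38 for day 7 over day 3. Without the day 7 region richest in the chondrogenic list, a choice made once the data had been seen, the day 7 medians were 1.59 over day 0 and 0.72 over day 3. These changes follow from the construction of each scaling or set of spots. The count of genes past 2-fold higher at day 1 was 1 with TMM factors, size factors and the reduced total, and 0 past 4-fold. The count lower at day 3 against day 0 was 3 with TMM factors, 3 with size factors and 2 with the reduced total, and at day 7 against day 0 it was 1 with either set of factors. From day 3 to day 7, 3 genes were past 4-fold higher, and 0 were lower past 4-fold or with the reduced total. The median log2 ratio of myofibre-poor over myofibre-rich spots was 0.75, 1.82 and 2.03 on days 0, 3 and 7 with spots split at the median, and 1.94 and 2.19 on days 3 and 7 with the reduced total. The share of spots with any of the genes moved with depth, to 97.1%, 43.7%, 89.6% and 98.9% on the 4 days at 1000 UMIs, 99.98%, 73.8%, 99.6% and 100% at 4000, and 100%, 77.8%, 99.97% and 100% without thinning. The median rho with Col1a1 was 0.129, 0.192 and 0.486 on days 0, 3 and 7 at 1000 UMIs, 0.264, 0.411 and 0.713 at 4000, and 0.117 and 0.382 on days 3 and 7 given the myofibre share. With resolution 1, and then with the reduced total, the regions richest in a list held these CPM of the 10 genes: 98228 and 103264 for the chondrogenic list at day 7; 2220 and 5783 for the tendon list at day 1; 791 and 717, 10266.5 and 8545, and 10019 and 20287 for the monocyte/macrophage list on days 1, 3 and 7; 2581 and 6046, 489 and 996.5, 1342 and 2987, and 4021 and 8415 for the adult myofibre list on days 0, 1, 3 and 7; and 15178 and 15374.6, and 3118 and 3188 for the adipocyte list on days 0 and 1. Why regions at resolution 1 differed was not tested. Depth limits P4ha3 at days 0 and 1 and Col14a1 at day 1 most.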
